A study of Lactuca sativa with 9 samples.

Results

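Medium light (Las_ML) was compared with the mean of high light (Las_SL) and low light (Las_WL) in lettuce leaves, as a single contrast across all genes measured. The members are the genes whose 3 Las_ML libraries all lay above the other 6 libraries, called peak genes, or all below them, called dip genes. Of 35342 genes in the expression table, 26145 had a mean of at least 0.5 FPKM (fragments per kilobase of transcript, scaled to the mapped fragments of a library) and entered the contrast. Among these, 346 genes were members, 292 as peak genes and 54 as dip genes. The rule used only the order of the 9 values of a gene, so the order itself is a description and carries no test.

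The plants were Lactuca sativa of the Hong Kong Glass type, aged 24 days, and the groups differed in light. Las_SL received 340, Las_ML 175 and Las_WL 60 μmol of photons per square metre per second, with 3 libraries in each group. These intensities follow the sample labels and the study's methods. The opening of the study's results gives those of Las_SL and Las_WL the other way round, which touches neither Las_ML nor the mean of both extremes. The labels name no other treatment, and each sample was a mixture of cut leaf material, so that fewer cells of a type and less RNA per cell cannot be told apart.

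Light intensity sets both the energy a leaf can fix and the excess it must dissipate. Leaves under dim light tend to grow thin and wide, while those under strong light tend to be thicker and to carry more protective pigments and phenolics. Expanding leaf cells remodel a wall of cellulose, xyloglucan and pectin. Xyloglucan endotransglucosylase/hydrolases (XTHs) cut and rejoin xyloglucan, pectinesterases remove methyl groups from pectin, and cellulose synthases lay down the fibrils.

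The libraries were not alike within groups. The 10 most abundant genes held 22.3 to 29.7% of the total FPKM in 7 libraries, but 35.2% in Las_WL2 and 36.9% in Las_WL3. Las_WL1 stood apart from its own group, with correlations across genes of 0.788 and 0.826 on the log2(FPKM + 1) scale. Markers of leaf mesophyll were abundant everywhere (31240 to 83520 FPKM summed over 69 genes). Of 63 mesophyll markers tested, 0 were peak genes and 0 were dip genes, near the 1.12% and 0.207% of all genes tested. Markers of lignifying vascular cells (10 genes) summed to between 9.83 and 24.1 FPKM and those of root endodermis (3 genes) to between 0.75 and 1.39 FPKM. Genes described as flower and pollen markers summed to 282.5 to 565.9 FPKM over 39 genes. The sets differ in size, so their sums cannot be ranked against each other. Dividing-cell markers (151 genes) summed to 995, 2045 and 2377 FPKM in Las_ML, to 2860, 878 and 1795 FPKM in Las_SL, and to 903 and 804 FPKM in Las_WL2 and Las_WL3. Of 124 dividing-cell markers tested, 3 were peak genes, against 1.12% of all genes. In limma, 4 had an unadjusted p below 0.05 in the higher direction, near the 3.23% of all genes. The sum of the dividing-cell markers reached 9334 FPKM in Las_WL1. Counts were therefore also made without Las_WL1.

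Few genes set medium light apart. Las_ML lay above the other 6 libraries in 292 genes (1.12% of those tested) and below them in 54 genes (0.207%). The same rule with Las_SL set apart gave 2521 genes above (9.64%) and 231 below (0.884%), and with Las_WL set apart 209 above (0.799%) and 4001 below (15.3%). In FPKM as deposited, the Las_ML mean fell between the other means in 15526 genes (59.4%), above both in 5488 and below both in 5115. The scaling factors that make the median gene equal were 1.03 to 1.13 in Las_SL, 1.02 to 1.1 in Las_ML and 0.816 to 1.03 in Las_WL. This order of the means was not counted under other scalings, and how far it rests on the scaling was not tested.

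These counts moved with the scaling of the libraries. When FPKM was rescaled so that the median gene was equal in all libraries, 253 genes lay above and 168 below for Las_ML. The share of peak genes among members thus went from 84.4% to 60.1%, and quantile normalization gave 61.3%. The count of genes below in Las_WL went from 4001 to 1213, and that of genes above in Las_SL from 2521 to 799. Medium light had the fewest genes set apart, both directions together, under each of the 4 scalings tried. Across those scalings, 128 genes were peak genes each time, and 29 were dip genes each time. Under the same rescaling the median difference of all genes went from 0.041 to -0.023 on the log2 scale.

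**Figure D1:**
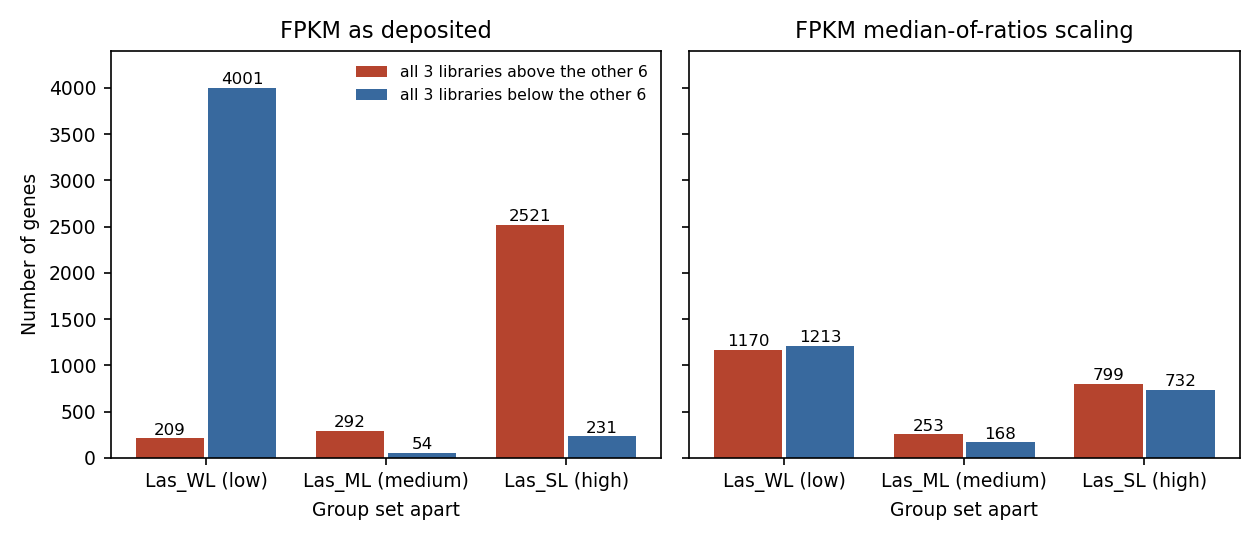
Number of genes (y axis) with all 3 libraries of a group above (red) or below (blue) the other 6, for each group (x axis), with FPKM as deposited (left) and after median-of-ratios scaling (right). Las_ML has 292 and 54 genes on the left and 253 and 168 on the right, fewer in all than either extreme.

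No gene passed the test of the contrast. With limma on log2(FPKM + 1) over 26145 genes, 0 genes (0%) had a Benjamini-Hochberg adjusted p below 0.05, and limma without an intensity trend also gave 0. At an unadjusted p below 0.05 there were 1006 genes (3.85%), of which 844 were higher (3.23%) and 162 lower (0.62%) in Las_ML. The smallest adjusted p of 0.0679 belonged to MSTRG.11681, an assembled gene without a description, named here after its values were seen. It had 1.36, 1.31 and 1.98 FPKM in Las_ML and was listed at 0 in the other 6 libraries, so it passed the filter through Las_ML alone. Leaving out single libraries gave between 0 and 12 genes at an adjusted p below 0.05. There were 12 without Las_ML1, 7 without Las_WL1, 3 without Las_ML2, and 1 each without Las_SL1, Las_SL3 and Las_WL3.

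Most members differed by little. The filter of 0.5 FPKM was passed only through Las_ML by 42 of the 292 peak genes, which then had to be higher there, and 10 of the 54 dip genes were below it in Las_ML. With both sides at or above 0.5 FPKM there were 250 peak (0.993%) and 44 dip genes (0.175%) of 25171, a filter chosen after seeing the data. The median log2 difference was 0.56 in peak genes (0.14 to 4.01), against 0.04 over all genes tested, and 48 of the 292 reached at least 1. The lowest Las_ML value was less than 1.1 times the highest of the other 6 in 166 peak genes, and more than 1.5 times it in 22. In dip genes the median difference was -0.39 (-1.51 to -0.09), and 7 of 54 reached -1 or lower. The highest Las_ML value came from Las_ML1 in 131 peak genes, from Las_ML3 in 118 and from Las_ML2 in 43. Since the rule has one value fewer to clear when a library is left out, all counts then grew. The peak genes numbered 332 to 871, with 607 without Las_ML1, 871 without Las_ML2, 449 without Las_ML3 and 510 without Las_WL1, and the dip genes 64 to 217. For dip genes the count was 81 without Las_SL1 and 64 without Las_SL3, but 108, 200, 132, 159, 217, 122 and 109 without Las_SL2, Las_ML1, Las_ML2, Las_ML3, Las_WL1, Las_WL2 and Las_WL3, in that order.

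The members just inside and just outside the rule show how narrow it can be. LOC111881103, described as a kinesin motor protein but a long noncoding RNA in the RefSeq table of a later assembly, counted as a peak gene with 0.664, 0.630 and 0.606 FPKM in Las_ML against a highest value of 0.606 FPKM elsewhere, a ratio of 1.001 before rounding. MSTRG.4832 fell just outside it, with 1.24, 1.24 and 1.27 FPKM in Las_ML and 1.24 FPKM in Las_WL1. Among dip genes LOC111919905, a carbon-nitrogen hydrolase, was the nearest inside (ratio 0.9996), and MSTRG.3857, listed at 0 in 7 libraries, the nearest outside.

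Of the 12 peak genes with the largest differences, 3 belonged to the Bet v I family. This family, named for the major birch pollen allergen, includes the pathogenesis-related PR-10 proteins, which bind small hydrophobic ligands such as plant hormones and flavonoids. The family was singled out here after the values were seen, so its counts are a description. Of the 21 members that passed the filter on low values, 5 were peak genes (23.8%, against 1.12% of all genes) and 0 were dip genes. The difference was above 0 in 18 of 21, against 15711 of all 26145 genes tested, and its median was 0.78 against 0.04 over all genes. In limma, 8 had an unadjusted p below 0.05 in the higher direction (3.23% of all genes) and 0 in the lower (0.62%). Under the other scalings 17 or 18 genes lay above 0, with medians of 0.67 to 0.80. The mean of the other 6 libraries was below 0.5 FPKM in 3 of the 21 (LOC111884574, LOC111900355 and LOC111897051), which therefore passed the filter through Las_ML and had to be higher there. Among the 17 genes with a mean of at least 0.5 FPKM both in Las_ML and in the other 6, there were 4 peak genes (23.5%, against 0.993% of all such genes). Of these 17, 15 lay above 0, against 15424 of all 25171 such genes, and the median was 0.73.

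LOC111914470 had 29.7, 7.05 and 11.2 FPKM in Las_ML, 2.67, 1.62 and 3.10 FPKM in Las_SL and 1.84, 1.501 and 1.07 FPKM in Las_WL. The groups did not overlap, and even the lowest Las_ML value was 2.27 times the highest of the others. The log2 difference was 2.32 ± 0.39 (SE, n = 3 against 6), with an adjusted p of 0.541 in limma. Against Las_SL alone the log2 difference was 2.09 and against Las_WL alone 2.56, both from the same Las_ML libraries.

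LOC111914472 had 30.1, 11.8 and 13.6 FPKM in Las_ML, 3.53, 2.49 and 3.66 FPKM in Las_SL and 4.18, 4.96 and 7.68 FPKM in Las_WL (log2 difference 1.79 ± 0.30 SE, limma adjusted p 0.541). In the RefSeq annotation of the later assembly Lsat_Salinas_v11, 1 gene lies between it and LOC111914470. That gene, LOC111914471, carries the same description and was no peak gene, with 13.96, 16.0 and 12.04 FPKM in Las_ML and 12.7, 19.4 and 13.6 FPKM in Las_SL. Reads shared between near-identical copies could have been split among them by the counting.

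LOC111906355 was the most abundant of the peak genes in this family. It had 113, 51.1 and 65.9 FPKM in Las_ML, 28.8, 26.8 and 30.7 FPKM in Las_SL and 24.8, 18.7 and 23.3 FPKM in Las_WL. The extremes were close to each other and Las_ML stood clear of both, with a log2 difference of 1.49 ± 0.24 (SE, limma adjusted p 0.509). LOC111920924 had 34.4, 6.59 and 10.6 FPKM in Las_ML, but its nearest other value, 6.28 FPKM in Las_SL3, came within 1.05 times of the lowest. LOC111884574 was high in a single library, with 6.94 FPKM in Las_ML1 and 0.409 and 0.388 FPKM in the other Las_ML libraries.

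In all 5 genes Las_ML1 was the highest library and the order of the other Las_ML libraries varied. Members that overlapped included LOC111906362 (53.7, 8.70 and 18.4 FPKM in Las_ML against at most 14.2 FPKM elsewhere) and LOC111898815 (42.4, 8.33 and 33.3 FPKM against at most 15.2 FPKM). In both, Las_ML2 fell among the other groups. Without Las_ML2 the family had 9 peak genes of 21, while all genes tested had 3.33%. Under the other leave-one-out runs and scalings it had 5 or 6.

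Cell wall genes were also among the peak genes. The list of wall genes, matched by words in the description, held 18 pectinesterases, 13 pectinesterase inhibitors, 11 XTHs, 9 pectate or pectin lyases, 8 pectin acetylesterases, 3 polygalacturonases, 2 proteins that inhibit them, 3 expansins and 3 xyloglucan glycosyltransferases. It thus mixes enzymes that loosen the wall with inhibitors and enzymes of synthesis. It had 6 peak genes of 70 tested (8.57%, against 1.12% of all genes) and 0 dip genes. The peak genes were 3 pectinesterases, 2 XTHs and 1 polygalacturonase. This was the highest share of peak genes among the 35 gene lists examined. Its median log2 difference was 0.12, against 0.04 over all genes. In limma, 10 members had an unadjusted p below 0.05 in the higher direction (3.23% of all genes) and 0 in the lower (0.62%). The list had 5 or 6 peak genes under the other scalings, with a median of 0.07 to 0.12, and 10 without Las_ML1.

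LOC111905140, an XTH, had 83.3, 61.1 and 82.0 FPKM in Las_ML, 34.8, 34.5 and 34.6 FPKM in Las_SL and 17.3, 27.0 and 23.4 FPKM in Las_WL. The replicates were tight in every group, and none overlapped another. The log2 difference was 1.40 ± 0.17 (SE), with a limma adjusted p of 0.208, and of 0.0476 without Las_WL1.

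LOC111883949, annotated as probable XTH protein 33, had 5.43, 7.56 and 8.61 FPKM in Las_ML, 3.43, 1.77 and 3.22 FPKM in Las_SL and 0.848, 0.482 and 0.505 FPKM in Las_WL. Here Las_SL lay between Las_ML and Las_WL without overlap. The log2 difference was 1.73 ± 0.20 (SE, limma adjusted p 0.208), made up of 1.12 against Las_SL and 2.33 against Las_WL. All 11 XTH genes tested had a difference above 0 as deposited, against 15711 of all 26145 tested, with a median of 0.47. After median-of-ratios scaling or quantile normalization 9 of them did, with medians of 0.38 and 0.42. Not all were higher than both extremes. Against Las_WL alone, LOC111912358 (-0.76), LOC111894164 (-0.53), LOC111909622 (-0.45) and MSTRG.9121 (-0.17) were lower, and LOC111909618 was lower against Las_SL (-0.43). The remaining genes were higher than both. In limma, 3 of the 11 had an unadjusted p below 0.05 in the higher direction, against 3.23% of all genes. The 9 XTHs that were not peak genes overlapped. MSTRG.6130, an abundant example, had 176, 423 and 311 FPKM in Las_ML, 158, 168 and 108 FPKM in Las_SL and 53.3, 144 and 241 FPKM in Las_WL.

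**Figure D2:**
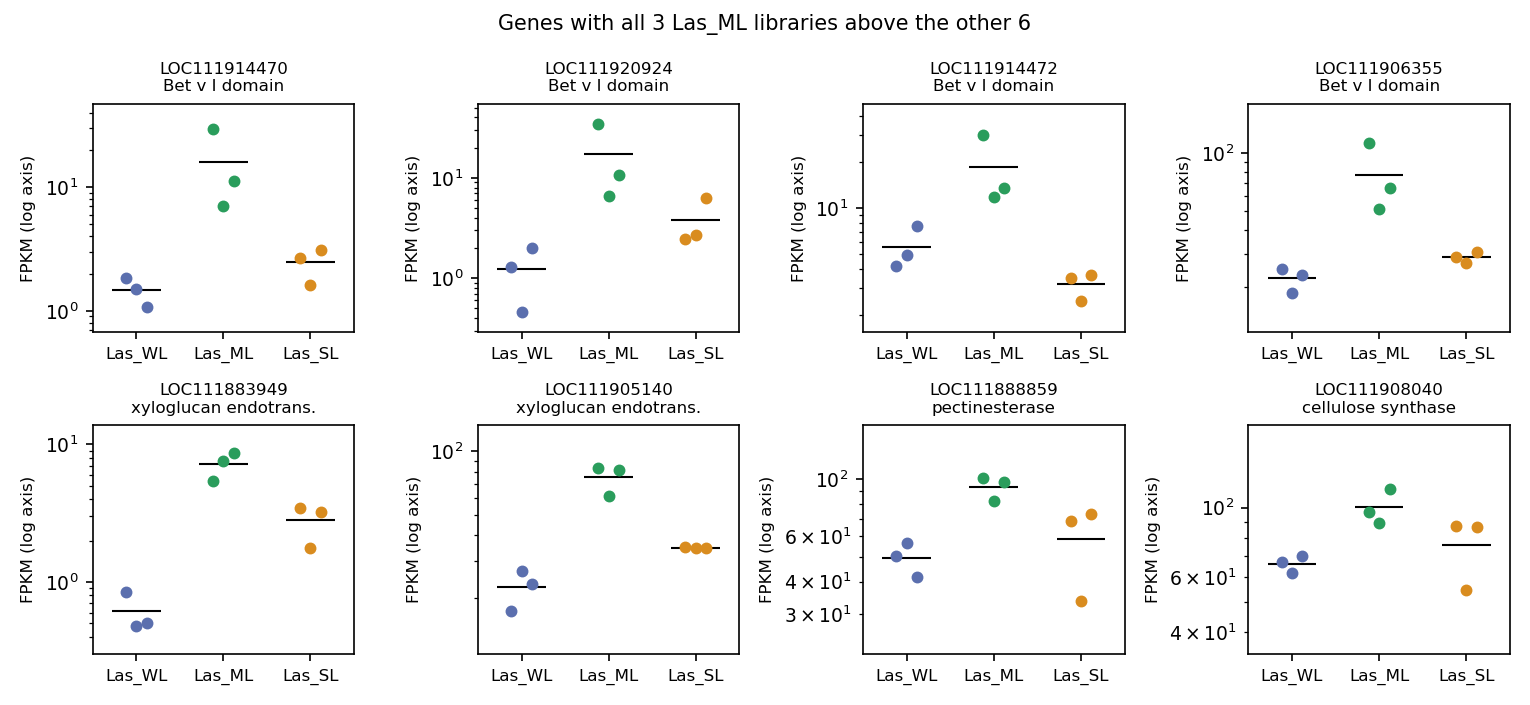
FPKM on a log axis (y) of 8 peak genes in each library, by group (x axis). Points are libraries and black lines are group means. Las_ML lies above both extremes in each panel, from 7.05 FPKM or more against at most 3.10 FPKM in LOC111914470 to a narrow gap in the cellulose synthase LOC111908040 (89.2 against 87.1 FPKM).

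Among 29 genes described first as pectinesterases or their inhibitors, 3 were peak genes (10.3%, against 1.12% of all genes), all pectinesterases. LOC111888859 was the most abundant of them, with 101, 82.6 and 97.3 FPKM in Las_ML, 68.9, 33.6 and 73.4 FPKM in Las_SL and 50.4, 56.8 and 41.7 FPKM in Las_WL (log2 difference 0.83 ± 0.26 SE, limma adjusted p 1). LOC111878227 had a larger difference of 1.22 at a lower level, 2.60 to 4.42 FPKM in Las_ML against 0.193 to 2.42 FPKM elsewhere. Over the 29 genes the median difference was 0.07, and -0.01 after median-of-ratios scaling, against 0.04 and -0.02 over all genes.

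Of 28 cellulose synthase genes, 3 were peak genes (10.7%, against 1.12% of all genes), all of them abundant and all with small gaps. The family was picked after the values were seen, and its median difference was 0.10, against 0.04 over all genes. LOC111908040, described as cellulose synthase A catalytic subunit 1, had 97.1, 89.2 and 114 FPKM in Las_ML, 87.1, 54.6 and 86.5 FPKM in Las_SL and 67.0, 61.6 and 70.0 FPKM in Las_WL. LOC111905042 had 65.4 to 72.6 FPKM in Las_ML against at most 63.7 FPKM elsewhere, and LOC111893805 29.0 to 32.4 FPKM against at most 28.1 FPKM. Their log2 differences lay between 0.50 and 0.76. The polygalacturonase LOC111907302, from a class of enzymes that cut pectin chains, had 3.05, 0.931 and 1.41 FPKM in Las_ML and at most 0.749 FPKM elsewhere (log2 difference 0.80 ± 0.23 SE).

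**Figure D3:**
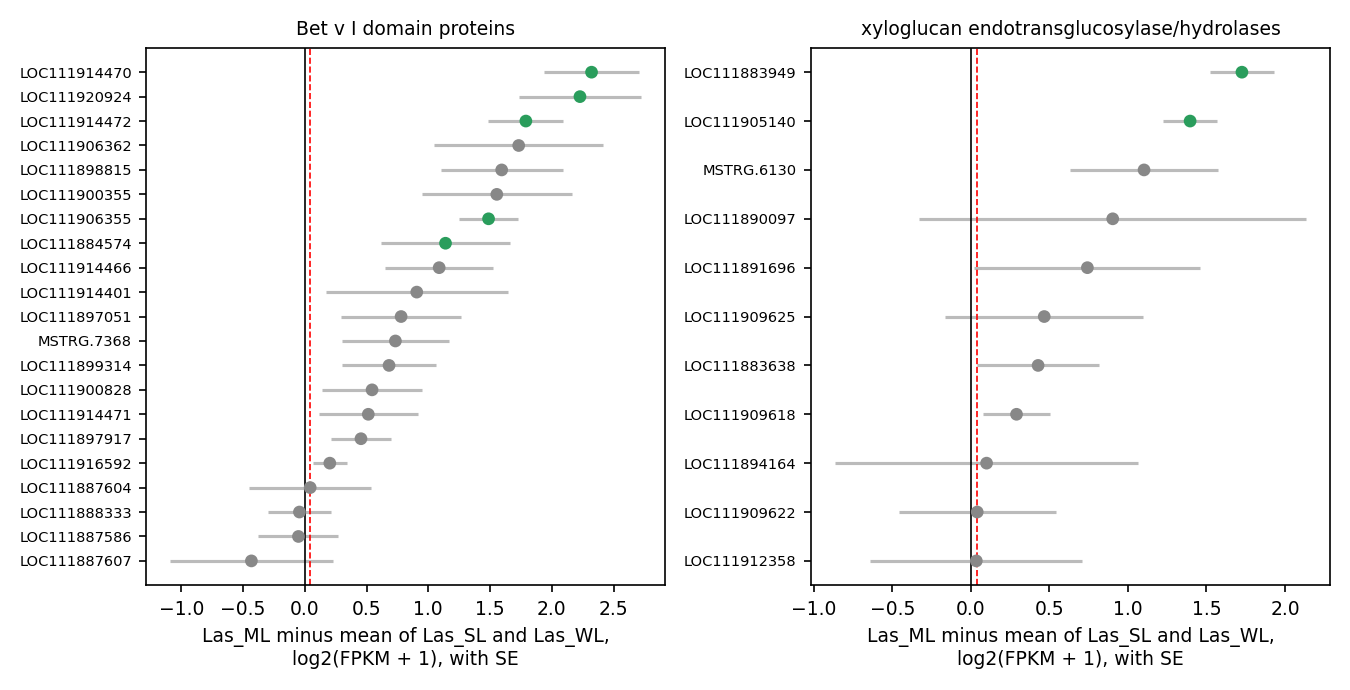
Log2 difference of Las_ML from the mean of Las_SL and Las_WL (x axis, log2(FPKM + 1), bars are the SE of limma) for each of 21 Bet v I genes (left) and 11 XTH genes (right), listed on the y axis. Green points are peak genes, and the dashed line is the median of all genes tested (0.041). Above 0 lie 18 of 21 and 11 of 11 genes, against 15711 of all 26145 tested. A difference above 0 does not mean that a gene was higher than both extremes.

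The Gene Ontology terms with the highest shares of peak genes named the same enzymes. Among 650 terms with at least 20 genes tested, the first were xyloglucan metabolic process (3 of 24 genes), pectinesterase inhibitor activity (3 of 26), cellulose synthase activity (3 of 28), pectinesterase activity (3 of 29) and hydrolase activity on glycosyl bonds (3 of 30). Anion transmembrane transport and lysosome followed with 2 of 20 each. Over all genes with such an annotation the share was 1.05%. Among 114 KEGG pathways the leaders were globo-series glycosphingolipid biosynthesis (1 of 20), isoquinoline alkaloid biosynthesis (3 of 71), lysine biosynthesis (1 of 24), pentose and glucuronate interconversions (7 of 170), terpenoid backbone biosynthesis (4 of 102) and butanoate metabolism (1 of 29), against 1.01% of all genes with a pathway. The pentose and glucuronate pathway holds the pectin-degrading enzymes, so these genes recur across the terms.

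Proteases and phenol-oxidising enzymes were also found among the peak genes. LOC111912452, a cysteine peptidase of a kind that degrades proteins in the vacuole, had 5.51, 3.88 and 15.1 FPKM in Las_ML, 0.483, 0.146 and 0.355 FPKM in Las_SL and 1.20, 0.548 and 2.86 FPKM in Las_WL (log2 difference 2.18 ± 0.41 SE, limma adjusted p 0.717). Las_ML3 was the highest library and Las_SL the lowest group. LOC111904626, described as cysteine protease-2, had the same order, with 1.53 to 7.52 FPKM in Las_ML against at most 0.804 FPKM elsewhere. Serine carboxypeptidases, which remove residues from the carboxyl end of proteins, had 3 peak genes of 34 (8.82%, against 1.12% of all genes). Their median difference was 0.05, against 0.04 over all genes. LOC111882527 was the highest of these, with 13.4, 10.4 and 33.2 FPKM in Las_ML against at most 9.49 FPKM.

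Polyphenol oxidases oxidise phenolics to quinones and cause the browning of cut lettuce. LOC111911882 had 15.2, 8.98 and 9.72 FPKM in Las_ML, 4.66, 4.79 and 6.44 FPKM in Las_SL and 2.45, 2.44 and 5.37 FPKM in Las_WL (log2 difference 1.22 ± 0.25 SE, limma adjusted p 0.876). Its near neighbour LOC111911883 had 1.78 to 4.94 FPKM in Las_ML against at most 1.73 FPKM. Las_ML1 was the highest library in both genes. These were 2 of 8 polyphenol oxidases tested (25%, against 1.12% of all genes), and 4 of the 8 had a difference above 0 and 4 below.

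The largest differences were in genes whose replicates varied widely. LOC111895744, without a description, had 963, 35.5 and 96.2 FPKM in Las_ML, 12.3, 0.520 and 13.6 FPKM in Las_SL and 13.5, 3.42 and 34.2 FPKM in Las_WL. Its lowest Las_ML value was only 1.04 times the value of Las_WL3, the log2 difference of 4.01 had an SE of 1.19 (limma adjusted p 1), and the groups overlapped under each of the other scalings. MSTRG.9095, which shares its gene name LOC111909588 with a plasma membrane ATPase locus, had 8.70 to 17.1 FPKM in Las_ML. It likewise met 8.04 FPKM in Las_WL3 and overlapped under the other scalings.

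LOC111919370, similar to the 14 kDa proline-rich protein DC2.15 of carrot, was abundant and more even. It had 443, 198 and 274 FPKM in Las_ML, 100.2, 10.5 and 34.2 FPKM in Las_SL and 123, 124 and 119.8 FPKM in Las_WL (log2 difference 2.15 ± 0.60 SE, limma adjusted p 1). Las_WL was nearly constant and Las_SL the lower and more variable extreme. MSTRG.1201, without a description, was ordered the other way, with 29.2 to 41.5 FPKM in Las_ML, 13.99 to 17.8 FPKM in Las_SL and 2.21 to 7.09 FPKM in Las_WL. Its log2 difference was 2.00 ± 0.28 (SE), with a limma adjusted p of 0.284, and of 0.0469 without Las_WL1.

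Among regulators, the homeodomain-like LOC111890307 had 8.67, 6.66 and 7.95 FPKM in Las_ML against 1.23 to 4.08 FPKM elsewhere (log2 difference 1.40 ± 0.24 SE, limma adjusted p 0.541). LOC111896946, of the basic helix-loop-helix class of transcription factors, had 24.1, 17.7 and 26.6 FPKM in Las_ML against 6.26 to 13.7 FPKM. Its extremes overlapped each other while Las_ML stood above both. The protein kinase LOC111892106 had 6.41 to 10.7 FPKM in Las_ML against 2.01 to 3.73 FPKM, with a log2 difference of 1.13 ± 0.21 (SE). LOC111907077, with the domain through which Aux/IAA repressors and auxin response factors pair, had 10.9 to 14.6 FPKM in Las_ML against at most 9.52 FPKM.

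The 3 most abundant peak genes, MSTRG.3839, MSTRG.10479 and LOC111899506, had narrow gaps, the lowest Las_ML value being 1.005 to 1.008 times the highest other value. MSTRG.3839, an aquaporin-like gene for water transport through membranes, had 870.0, 869 and 871 FPKM in Las_ML, but 541, 855 and 863 FPKM in Las_WL (log2 difference 0.23 ± 0.22 SE). MSTRG.10479, a late embryogenesis abundant protein of the LEA-14 group, had 247 to 259 FPKM in Las_ML, and Las_SL1 reached 245 FPKM. The gap was also narrow in the less abundant sugar transporter LOC111895356 of the SWEET family, which had 5.63 to 9.43 FPKM in Las_ML, and Las_WL3 reached 5.60 FPKM. The aquaporins and sugar transporters had 2 peak genes of 57 as deposited and 0 of 57 under each of the other scalings.

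Photosystem and light-harvesting genes, which encode the light-capturing machinery of the chloroplast, held no members. Of 98 tested, 0 were peak genes, 0 were dip genes and 0 had an unadjusted p below 0.05. Over all genes tested, 1.12% were peak and 0.207% dip genes, so 0 of 98 is near those shares. The log2 difference was above 0 in 87 of the 98 genes, against 15711 of all 26145 tested. Its median was 0.16 against 0.04 over all genes. Against Las_SL alone the median was 0.24, where all genes had -0.05. Against Las_WL alone it was 0.04, where all genes had 0.13, so the list was not set above both extremes. Under the other scalings the median of the contrast was 0.08 to 0.16, with 69 to 88 genes above 0. The Calvin cycle had 1 peak gene of 143, histones 0 of 64, WRKY factors 0 of 60 and the ribosome 1 of 440, with a median of -0.08. Lists were matched by words in the description or the pathway annotation, so a member need not be an enzyme of the pathway. The Calvin cycle peak gene, LOC111898118, is described as a drug/metabolite transporter. That of the ribosome is LOC111919370, the DC2.15-like proline-rich gene. Larger pathways, beside the 1.12% of all genes, had 14 of 558 genes (2.51%) in starch and sucrose metabolism, 14 of 802 (1.75%) in plant hormone signalling and 18 of 951 (1.89%) in plant-pathogen interaction. Chlorophyll and porphyrin metabolism had 4 peak genes and 1 dip gene of 131.

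**Figure D4:**
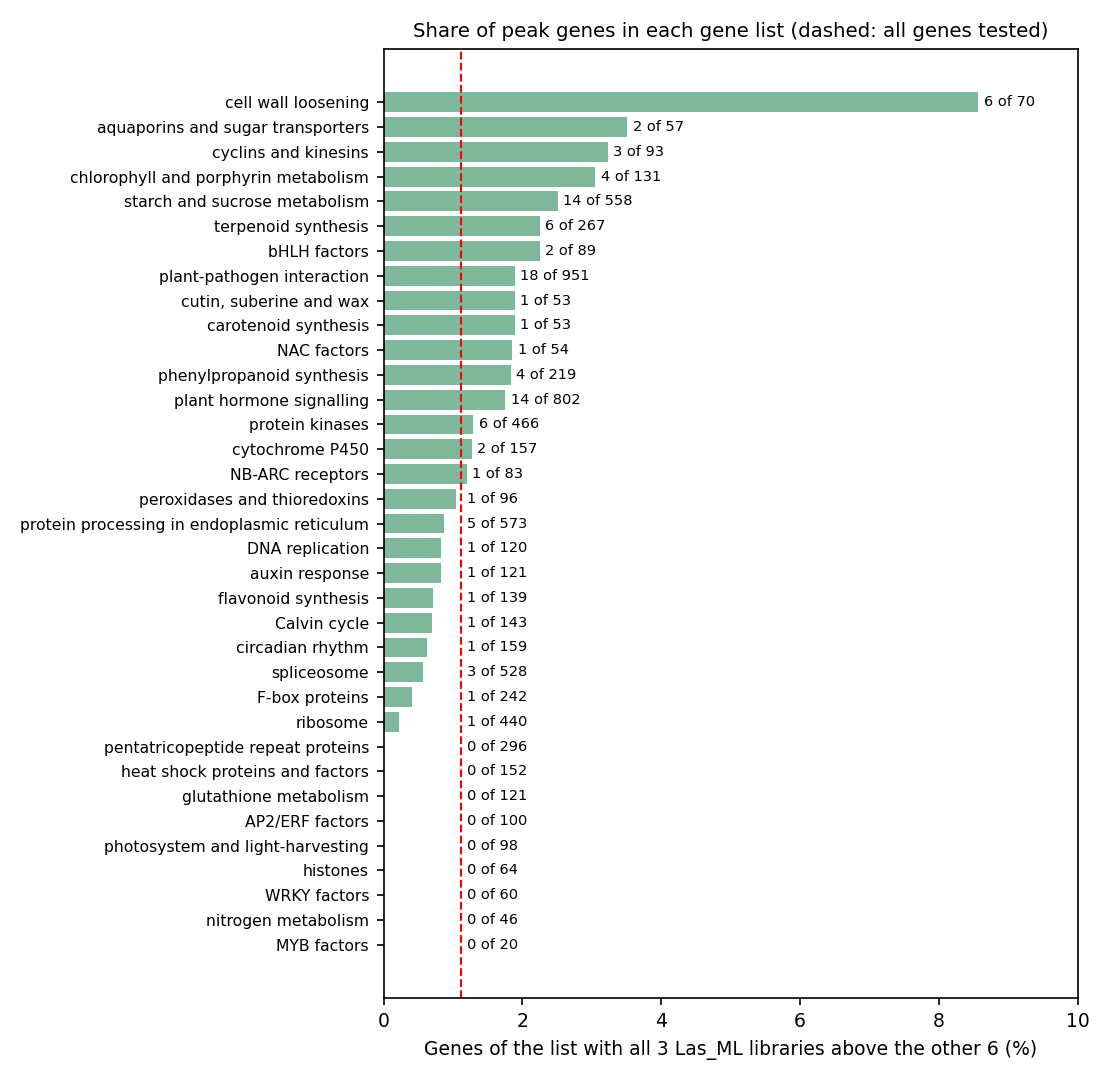
Percentage of the genes tested in each of 35 gene lists (y axis) that were peak genes (x axis), with counts beside the bars. The dashed line is the share over all genes tested (1.12%), and the list of wall genes, here cell wall loosening, reaches 8.57% (6 of 70 genes).

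Dip genes were fewer and less well annotated. No description was given for 27 of 54 dip genes (50%), against 26% of peak genes and 22.2% of all genes tested. No gene name was given for 42.6% of dip genes, against 12.4% of all genes. The most abundant dip gene, MSTRG.21846, had 291, 477 and 447 FPKM in Las_ML, 762, 872 and 809.5 FPKM in Las_SL and 1555, 632 and 661 FPKM in Las_WL (log2 difference -1.08 ± 0.33 SE, limma adjusted p 1). All Las_ML values were below the lowest of the others, and Las_WL1 was far above its own group.

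MSTRG.24494, also without a description, is an assembled locus under the gene name LOC111890907, which the table gives also to the described locus MSTRG.24497. MSTRG.24494 had 0.0307, 0.00575 and 0.00477 FPKM in Las_ML and 1.88, 2.24 and 1.80 FPKM in Las_SL. In Las_WL it had 0.0641, 1.06 and 1.25 FPKM, with Las_WL1 close to the Las_ML level. The log2 difference was -1.15 ± 0.23 (SE), with a limma adjusted p of 0.859, and of 0.0348 without Las_WL1. MSTRG.24497 was no dip gene, with 30.6 FPKM or more in Las_ML and 13.6 to 41.4 FPKM elsewhere. The largest difference of a dip gene was that of MSTRG.2139 (-1.51 ± 0.24 SE), which was listed at 0 in Las_ML1 and Las_ML3 and had 1.67 to 4.54 FPKM in the extremes.

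Some of the described dip genes encode transcription factors, and the share of such factors among all genes was not counted. By list, dip genes were 2 of 100 AP2/ERF, 1 of 54 NAC and 1 of 20 MYB genes. They were 0 of 89 basic helix-loop-helix and 0 of 60 WRKY genes, against 0.207% of all genes tested. LOC111889834, with the NAM domain of the NAC family that acts in development, senescence and stress, had 1.72, 1.79 and 2.49 FPKM in Las_ML, 4.84, 11.9 and 7.21 FPKM in Las_SL and 2.90, 6.24 and 2.99 FPKM in Las_WL. Las_SL was the highest group, and the gap to the lowest Las_WL value was small. The log2 difference was -1.11 ± 0.29 (SE, limma adjusted p 1), with -1.52 against Las_SL and -0.70 against Las_WL. Of 54 NAC genes, LOC111889834 was the only dip gene, and LOC111891558 was a peak gene (1.48 to 1.55 FPKM in Las_ML against 0.0396 to 1.08 FPKM elsewhere).

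LOC111905114, of the AP2/ERF family that includes ethylene response factors, had 0.305, 0.354 and 0.234 FPKM in Las_ML, 1.38, 2.11 and 2.40 FPKM in Las_SL and 1.04, 0.488 and 0.417 FPKM in Las_WL (log2 difference -0.75 ± 0.17 SE, limma adjusted p 0.876). The difference from Las_SL was -1.18 and that from Las_WL -0.33. AP2/ERF genes had 2 dip genes of 100, against 0.207% of all genes. The other, LOC111904548, differed by only -0.13, and its groups overlapped under each of the other scalings. The heat shock factor LOC111888821, of the family that switches on chaperone genes, had 13.9, 13.96 and 13.1 FPKM in Las_ML, 21.5, 25.2 and 18.9 FPKM in Las_SL and 16.1, 14.3 and 15.1 FPKM in Las_WL. Its difference from Las_WL was -0.14 and from Las_SL -0.63.

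A regulator and an enzyme of phenolic metabolism were dip genes. Phenylpropanoid synthesis had 4 peak genes (1.83%) and 1 dip gene (0.457%) of 219, and flavonoid synthesis 1 of each of 139 (0.719%). Over all genes tested, 1.12% were peak and 0.207% dip genes, so these few genes set neither list apart. After median-of-ratios scaling phenylpropanoid synthesis had 1 peak gene and 0 dip genes. LOC111899419, similar to MYB308, which in snapdragon is known as a repressor of phenylpropanoid genes, had 24.4, 24.8 and 19.8 FPKM in Las_ML, 29.6, 25.96 and 26.8 FPKM in Las_SL and 35.5, 34.4 and 38.5 FPKM in Las_WL (log2 difference -0.44 ± 0.12 SE, limma adjusted p 1). LOC111881682 is described as hydroxycinnamoyl-CoA quinate/shikimate hydroxycinnamoyl transferase, an enzyme on the route to chlorogenic acid and lignin. It had 35.1, 41.6 and 42.7 FPKM in Las_ML against 44.1 to 55.3 FPKM elsewhere. In both genes the gaps were small, and the groups overlapped under median-of-ratios scaling and quantile normalization.

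**Figure D5:**
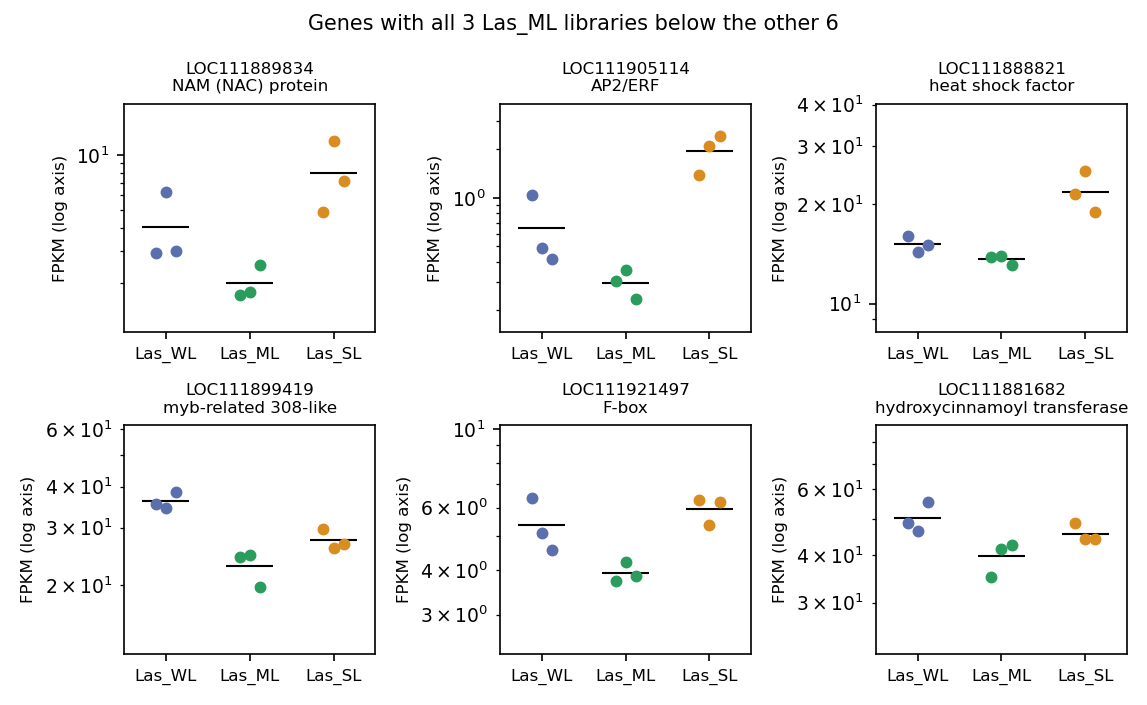
FPKM on a log axis (y) of 6 described dip genes in each library, by group (x axis). Points are libraries and black lines are group means. Las_ML lies lowest in each panel, with 1.72 to 2.49 FPKM against 2.90 FPKM or more in the NAM gene LOC111889834 and 13.1 to 13.96 against 14.3 FPKM or more in the heat shock factor LOC111888821.

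Other described dip genes included 2 of 242 F-box proteins (0.826%, against 0.207% of all genes), which select targets for degradation. That list had 6 dip genes after median-of-ratios scaling (2.48%, against 0.643% of all genes) and 3 after quantile normalization (1.24%, against 0.616%). It had 2 to 7 when single libraries were left out (5 without Las_SL2 or Las_WL2, 7 without Las_ML1, 4 without Las_ML3 and 6 without Las_WL1). The share over all genes was then 0.245% to 0.83%, so dip genes became more common in general. LOC111921497 had 3.72, 4.21 and 3.84 FPKM in Las_ML against 4.56 to 6.40 FPKM elsewhere. The auxin-responsive SAUR gene LOC111919908 had 3.41 to 3.61 FPKM in Las_ML against 3.96 to 5.14 FPKM. No KEGG pathway held more than 3 dip genes. The highest shares, each beside 0.153% of all genes with a pathway, were those of globo-series glycosphingolipid biosynthesis (1 of 20), N-glycan biosynthesis (2 of 79), alanine, aspartate and glutamate metabolism (1 of 56) and glycerolipid metabolism (3 of 203). The leading Gene Ontology terms each held 1 dip gene.

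Between the extremes, Las_SL had the higher mean in 229 of 292 peak genes (78.4%), against 62.5% of all genes tested, and in 31 of 54 dip genes. These counts are for FPKM as deposited and were not made under other scalings. Of 244 members whose gene name stands on a single row, 233 were found in the RefSeq gene table of Lsat_Salinas_v11. Long noncoding RNAs made up 12 of 207 matched peak genes (5.8%) and 0 of 26 dip genes, against 6.1% of all matched genes.

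Circular RNAs (circRNAs), which arise by back-splicing of exons, were counted as back-spliced reads in the same libraries, with 398 to 1036 reads per library. Of 347 circRNAs tested under the same contrast with edgeR, 1 was called (0.288%), and 12 had an unadjusted p below 0.05. circRNA784, which arises from LOC111876071, an aldolase-type TIM barrel protein, had 14, 12 and 9 reads in Las_ML, 0 reads in each Las_SL library and 0, 4 and 0 reads in Las_WL (edgeR adjusted p 7.205e-07). The call was lost in DESeq2 (adjusted p 0.302) and without Las_SL3 (edgeR adjusted p 0.463), while the fitted log2 difference was 4.27 and 4.62 there, against 4.61. With Las_SL at 0 the values fitted by edgeR depend on its prior count. The gene itself overlapped between groups, with 47.0, 36.7 and 33.2 FPKM in Las_ML, 41.2, 51.0 and 44.9 FPKM in Las_SL and 14.7, 32.5 and 32.8 FPKM in Las_WL. Las_ML lay above the other 6 libraries in 3 circRNAs (0.865%) and below them in 0. Member genes whose name stands on a single row of the table gave rise to 16 circRNAs with 62 of 6836 reads. Of those reads, 38 came from circRNA262 of the peak gene LOC111917365, and its counts were 2, 2 and 4 in Las_ML against 3 to 7 elsewhere.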

How the data were processed

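Leaves were sampled from lettuce grown at 3 light intensities, with 3 libraries described as biological replicates in each group. The gene values are FPKM as deposited by the authors, with no counts beside them, so the depth behind a gene's value is not given there. The circRNA table holds counts of back-spliced reads as deposited. The authors also deposited a normalized back-spliced signal, which was not tested here. The paper names TopHat2 and edgeR on assembly Lsat_Salinas_v7, while the submitters' processing notes name HISAT2 2.0, StringTie 1.3.0, Bowtie 0.12.2 and a mouse build. Gene identifiers that start with MSTRG have the form StringTie gives. The paper describes rRNA depletion and RNase R digestion, and the labels describe poly(A) selection, so the preparation behind the FPKM values is uncertain. The paper describes a strand-retaining kit, but not whether the counting used the strand, so antisense genes may not be told apart.

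Genes with a mean of at least 0.5 FPKM were fitted with limma 3.58.1 (trend, R 4.3.3) on log2(FPKM + 1) over all 9 libraries, with Las_ML minus the mean of Las_SL and Las_WL as the contrast. A gene was called at a Benjamini-Hochberg adjusted p below 0.05 over all genes tested and an absolute difference of at least 1. The FPKM + 1 scale understates changes of low genes. circRNAs were tested with edgeR 4.0.16 (quasi-likelihood), with DESeq2 1.42.0 as an alternative. The scripts were tested on simulated data. Figures were drawn with matplotlib 3.10.9.

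The members and lists were chosen with earlier results of these data known. Named genes were the 12 peak and 12 dip genes of largest absolute difference, the strongest peak and dip gene of each of 35 lists, the 3 most abundant of each direction, the genes nearest the rule's edge and parents of called circRNAs. Family members beyond these were chosen after their values were seen. Patterns of the ribosome, cyclin and light-harvesting lists were corrected after the table's wording was seen. Terms were named by the highest shares among those with at least 20 genes. Genes whose name stands on several rows are given by their assembled locus. Sequences are not printed, as no genome of the build was used here.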

Additional observations from a re-analysis of the deposited data

How the results depend on the processing

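With FPKM and 3 libraries per group, membership rests on small gaps. Genes called higher numbered 0, with 1 when no filter on low values was used, 123 at an unadjusted p below 0.05, and 0 to 8 when single libraries were left out. Genes called lower numbered 0, with 23 at an unadjusted p below 0.05 and 0 to 4 when single libraries were left out. Peak genes numbered 292, with 129 at a mean FPKM of at least 5, 332 to 871 when single libraries were left out, and 683 without Las_SL replicate 2 and Las_WL replicate 1 together, a choice made after seeing the data. Dip genes numbered 54, with 33 at a mean FPKM of at least 5, 161 after quantile normalization, 168 after median-of-ratios scaling (also chosen after seeing the data), 64 to 217 when single libraries were left out, and 296 without both libraries. Of the 292 peak genes, 139 were peak genes after quantile normalization, 177 after median-of-ratios scaling and 241 when rescaled without the 10 most abundant genes. The cause of these shifts was not tested. Called circRNAs numbered 1, with 0 in DESeq2 and 0 to 2 when single libraries were left out.

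Among 83 named genes, the direction reversed for the neighbours just outside the rule, MSTRG.4832 (-0.004 after quantile normalization) and MSTRG.3857 (-0.861 to 0.001 when single libraries were left out, the latter without Las_WL replicate 3). Single omitted libraries brought 4 of the named genes below an adjusted p of 0.05. With the replicate number as a block, limma gave 0 genes at an adjusted p below 0.05 and 1022 at an unadjusted one, and edgeR still called 1 circRNA. Deviations of same-numbered libraries correlated between -0.519 and 0.561. With 3 libraries per group, such correlations cannot decide whether same-numbered libraries share a batch.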
